A study of Mus musculus with 12 samples.

Results

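The ELR-type CXC chemokines Cxcl1, Cxcl2, Cxcl3 and Cxcl5 were followed in subcutaneous Colon26 tumours of wild-type BALB/c mice, in 4 groups of 3 mice each. They are 4 of the 19921 gene symbols in the count tables and were taken by symbol. Of the 4, 3 passed the filter on low counts and were tested among 5443 genes, while Cxcl3, with 14 counts over all 12 libraries, did not. Colon26 is a mouse colon carcinoma line, and every mouse received 200000 of its cells in the right flank. The combination group was given anti-PD-L1 antibody and minP1, a peptide taken from HMGN1, a nucleosome-binding protein that also acts as an alarm signal to immune cells. The anti-PD-L1 group was given the antibody alone, the minP1 group the peptide alone, and the control group is labelled control with no further detail. The antibody, 200 µg into the peritoneum, was injected on days 4 and 8, and minP1, 0.08 µg by the same route, on day 9. Tumours were taken on day 10, 1 day after minP1. Each library held all cells left after digestion and a density step meant to take out tumour and dead cells, from 1 mouse, and the series asks what the antibody and the peptide do alone and together. The labels name the peptide of the combination group in the sample title and not in the treatment field, so its group rests on that title.

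ELR chemokines carry a glutamate-leucine-arginine motif before their first cysteines and draw neutrophils through the receptor CXCR2. Macrophages, fibroblasts, endothelial cells and tumour cells release them within hours of a stimulus such as TNF, interleukin-1 or a Toll-like receptor ligand, mostly through NF-kB, and their messages are short-lived. Cxcl1 (KC) and Cxcl2 (MIP-2) are the best-known mouse members, Cxcl3 is a close relative of both, and Cxcl5 (LIX) is made largely by epithelial and stromal cells.

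The 4 genes lie in 1 cluster on the plus strand of mouse chromosome 5, with a span of 147 kb. In GENCODE M21 on GRCm38, the assembly also named mm10, Cxcl5 (ENSMUSG00000029371) runs from 90759360 to 90761624 and Cxcl3 (ENSMUSG00000029379) from 90786103 to 90789600. Cxcl1 (ENSMUSG00000029380) runs from 90891241 to 90893115 and Cxcl2 (ENSMUSG00000058427) from 90903871 to 90905938, which leaves 10.8 kb between the end of Cxcl1 and the start of Cxcl2. None of the 4 overlaps another annotated gene on either strand. Promoters were found for 3 of the 4 members in the RefSeq table, on GRCm38, and Cxcl5 was not matched. They are shown because the 3 genes share the same letters upstream, although Cxcl1 was called higher in several comparisons and Cxcl2 in none. Capitals mark the kappa-B consensus match, the first run, and the ATAAAAGG box, the second. Each sequence ends at the base before the first annotated start.
Cxcl1, chr5:90890995-90891240, plus strand: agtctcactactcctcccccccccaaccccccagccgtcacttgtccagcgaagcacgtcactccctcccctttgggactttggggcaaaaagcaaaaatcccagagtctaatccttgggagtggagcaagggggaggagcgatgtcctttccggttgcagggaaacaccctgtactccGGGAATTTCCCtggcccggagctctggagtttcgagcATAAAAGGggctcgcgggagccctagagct
Cxcl2, chr5:90903649-90903870, plus strand: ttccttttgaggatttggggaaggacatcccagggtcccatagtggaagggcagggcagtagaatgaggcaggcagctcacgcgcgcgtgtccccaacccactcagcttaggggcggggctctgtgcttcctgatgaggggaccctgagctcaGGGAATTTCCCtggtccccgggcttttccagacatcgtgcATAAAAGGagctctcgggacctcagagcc
Cxcl3, chr5:90785851-90786100, plus strand: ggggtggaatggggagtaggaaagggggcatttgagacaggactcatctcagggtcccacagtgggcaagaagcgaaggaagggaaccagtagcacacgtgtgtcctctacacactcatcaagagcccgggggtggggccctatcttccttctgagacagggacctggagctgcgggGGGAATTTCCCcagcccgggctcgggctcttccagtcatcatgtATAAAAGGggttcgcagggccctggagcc
Each promoter held 1 kappa-B match, searched on both strands, with overlapping matches on the 2 strands merged. It began 71 bases before the RefSeq start of Cxcl1, 97 before that of Cxcl2 and 73 before that of Cxcl3, and its letters were the same in all 3. Of 32851 RefSeq promoters, 3.9% held the consensus in the 250 bases before the start. The exact run GGGAATTTCC, from the Cxcl1 match, was in 28 of them (0.0852%) and ATAAAAGG in 1.54%, both letter runs having been chosen after the member promoters were read. All 3 promoters that held both runs were those of Cxcl1, Cxcl2 and Cxcl3. TATAAA was in 12.4% of all promoters and, among these 3, in that of Cxcl3. A match of letters is a description and says nothing of binding in these tumours.

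Each library counts short tags read from the 5′ ends of transcripts, an assay called 5′SAGE-seq. Totals ran from 133917 to 473273 counts, with 506616 counts summed over the combination libraries, 799745 in anti-PD-L1, 910761 in minP1 and 1134230 in control. Levels are CPM, the count relative to the library total, scaled by trimmed mean of M-values (TMM) factors, and are called scaled CPM. A tag is counted once per transcript end, so the levels were not divided by length. Of the 5 epithelial and carcinoma marker genes in the tables, the summed level was 0 to 55.8 scaled CPM in the combination, 10.3 to 16.0 in anti-PD-L1, 0 to 10.3 in minP1 and 3.28 to 20.4 in control. Bc1, a small noncoding RNA, had 11160 to 34750 CPM in the combination, 11490 to 23600 in anti-PD-L1, 7379 to 22480 in minP1 and 6633 to 11420 in control.

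Cxcl1 carried most of the signal and rose in both groups that received the antibody, most with minP1 added. Its counts were 118, 81 and 108 in the combination libraries, 54, 71 and 124 in anti-PD-L1, 29, 56 and 49 in minP1, and 50, 29 and 81 in control. As scaled CPM these were 935, 452 and 559 in the combination, 305, 243 and 396 in anti-PD-L1, 99.9, 190 and 147 in minP1, and 131, 95.2 and 165 in control. Every combination library lay above every other library, every anti-PD-L1 library lay above every minP1 and control library, and minP1 overlapped control. In these mixed samples, fewer cells of a type and less RNA per cell cannot be told apart. Group means of Cxcl1 were 649 ± 254 scaled CPM in the combination, 315 ± 77.2 in anti-PD-L1, 146 ± 45.0 in minP1 and 131 ± 34.9 in control (SD, n = 3 each).

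Against control, Cxcl1 was 2.25 ± 0.30 log2 units higher in the combination (SE; edgeR quasi-likelihood test, adjusted p = 1.12e-05) and 1.22 ± 0.30 higher in anti-PD-L1 (adjusted p = 0.0458). Of all genes tested, 16.5% rose in the combination and 0.551% in anti-PD-L1, and 21.2% and 11.8% lay above control with no overlap in scaled CPM. The combination exceeded minP1 by 2.12 ± 0.31 (adjusted p = 6.36e-05), where 9.19% of genes rose and 16.8% did not overlap. It exceeded anti-PD-L1 by 1.03 ± 0.29 (adjusted p = 0.0327), where 2.99% of genes rose and 12.1% did not overlap. In minP1 alone the difference from control was 0.13 ± 0.31, with a 95% interval of -0.52 to 0.77 (adjusted p = 0.971), in a comparison where 0% of genes passed by edgeR, 383 had an unadjusted p under 0.05, and DESeq2 called 1 gene. The anti-PD-L1 call rested on single libraries: leaving out control library 1 or 2 gave an adjusted p of 0.056 or 0.17, and leaving out anti-PD-L1 library 1, 2 or 3 gave 0.137, 0.0613 or 0.124 (edgeR), at differences of 1.05 to 1.39. With unscaled library totals it was 1.13 (adjusted p = 0.0507), with the Bc1 level as a covariate 1.06 (adjusted p = 0.177), and with all libraries thinned to the smallest total 0.72 (adjusted p = 0.35). The step from anti-PD-L1 to the combination was 0.72 (adjusted p = 0.22) without combination replicate 1, the highest library.

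**Figure D1:**
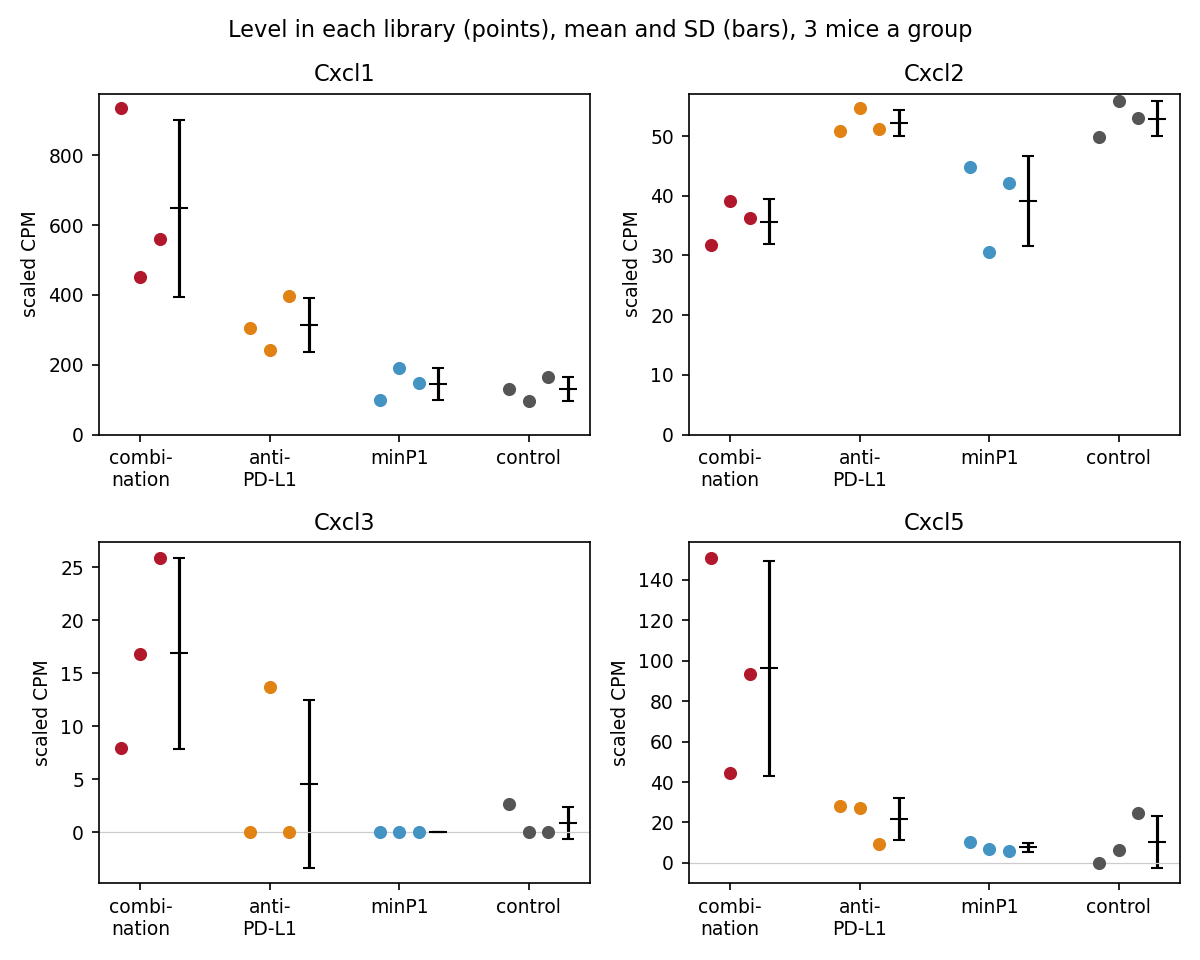
Level of Cxcl1, Cxcl2, Cxcl3 and Cxcl5 in each of the 12 libraries, in TMM-scaled CPM, as points by group, with the mean and SD of 3 mice as bars. Cxcl1 stood at 452 to 935 in the combination and 95.2 to 165 in control, while Cxcl2 stood at 31.7 to 39.1 in the combination and 49.9 to 55.8 in control.

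Cxcl5, the ligand linked to epithelial and stromal sources, was low outside the combination. It had 19, 8 and 18 counts in the combination libraries, 5, 8 and 3 in anti-PD-L1, 3, 2 and 2 in minP1, and 0, 2 and 12 in control. Scaled CPM were 151, 44.7 and 93.2 in the combination, 28.2, 27.3 and 9.58 in anti-PD-L1, 10.3, 6.78 and 6.01 in minP1, and 0, 6.57 and 24.5 in control. All 3 combination libraries lay above the other 9, and control replicate 3 gave 12 of the 14 control counts. Of all genes tested, 21.2% lay above control in the combination, 16.8% above minP1 and 12.1% above anti-PD-L1 with no overlap.

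Cxcl5 rose in the combination against control by 2.94 ± 0.63 log2 units (edgeR, adjusted p = 0.00101), against minP1 by 3.52 ± 0.70 (adjusted p = 0.00123) and against anti-PD-L1 by 2.14 ± 0.62 (adjusted p = 0.0361). Cxcl5 passed the filter, which asks for 34.8 CPM in 3 libraries, only through the combination libraries, so a difference in their favour was built into its being tested there. In the fit of all 19921 symbols without the filter the same differences were 2.86 ± 0.51 (adjusted p = 1.28e-06), 3.44 ± 0.57 (adjusted p = 4.71e-07) and 2.04 ± 0.50 (adjusted p = 0.00572, edgeR), where 9.66%, 5.03% and 1.99% of genes changed. With the filter and without control replicate 3 the first difference was 4.74. The call against anti-PD-L1 with the filter was lost without anti-PD-L1 replicates 2 or 3 (adjusted p = 0.0862 and 0.181) or combination replicates 1 or 3 (adjusted p = 0.213 and 0.0731), at 1.73 to 2.43, and with limma voom (adjusted p = 0.0506). In anti-PD-L1 against control the difference was 0.80 ± 0.74, with a 95% interval of -0.72 to 2.33 (edgeR, adjusted p = 0.608). In minP1 against control it was -0.58 ± 0.85, with an interval of -2.34 to 1.19 (adjusted p = 0.938).

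Cxcl3, the rarest member, was seen in 5 of 12 libraries. It had 1, 3 and 5 counts in the combination, 0, 4 and 0 in anti-PD-L1, 0, 0 and 0 in minP1, and 1, 0 and 0 in control. The 3 combination libraries were the only group with a count in each library. With 0 of 910761 counts in minP1, a level of up to 3.29 CPM is allowed there. Set against that floor of 3 counts over the whole minP1 group, the 9 combination counts were 5.39-fold higher per total. That ratio takes the 9 counts as exact and pools the mice, so it is not a lower limit. Against the single control count the ratio was 20.1, with a 95% exact counting interval of 2.79 to 883. In a fit of all 19921 symbols without the filter, where 9.66% of genes changed in the combination against control and 5.03% against minP1, Cxcl3 passed in both (edgeR, adjusted p = 0.0276 and 0.0177). With the replicate number as a block the adjusted p was 0.0935 and 0.0587, and it was 0.464 and 0.271 with all libraries thinned to the smallest total. Without combination replicate 3 it was 0.206 and 0.131, without combination replicate 2 it was 0.0802 and 0.0554, without control replicates 2 or 3 the first was 0.0849 and 0.138, and without minP1 replicates 1 or 3 the second was 0.0713 and 0.0879. Cxcl3 did not pass against anti-PD-L1, with a difference of 1.63 ± 1.03 (edgeR without the filter, adjusted p = 0.7), where 1.99% of genes changed. In anti-PD-L1 against control, where 0.838% changed, it was 2.09 ± 1.38 (adjusted p = 0.803), and in minP1, where 0.256% changed, adjusted p was 0.859.

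Cxcl2 did not follow Cxcl1. It had 4, 7 and 7 counts in the combination, 9, 16 and 16 in anti-PD-L1, 13, 9 and 14 in minP1, and 19, 17 and 26 in control. Scaled CPM were 31.7, 39.1 and 36.2 in the combination, 50.8, 54.7 and 51.1 in anti-PD-L1, 44.8, 30.5 and 42.1 in minP1, and 49.9, 55.8 and 53.0 in control. The combination and minP1 libraries all lay below every control, as did 24.7% and 6.56% of genes tested, and the anti-PD-L1 libraries lay within the control range. The combination also lay below every anti-PD-L1 library, as did 15% of genes. No difference passed: it was -0.57 ± 0.38 in the combination, with an interval of -1.35 to 0.20 (edgeR, adjusted p = 0.242), and -0.04 ± 0.32 in anti-PD-L1, with an interval of -0.71 to 0.62 (adjusted p = 0.967). In minP1 it was -0.44 ± 0.33, with an interval of -1.11 to 0.23 (adjusted p = 0.819). The combination was -0.53 ± 0.39 from anti-PD-L1 (adjusted p = 0.428) and -0.13 ± 0.40 from minP1 (adjusted p = 0.844). A rise of Cxcl2 as large as that of Cxcl1 in the combination, 2.25, lies outside its interval.

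**Figure D2:**
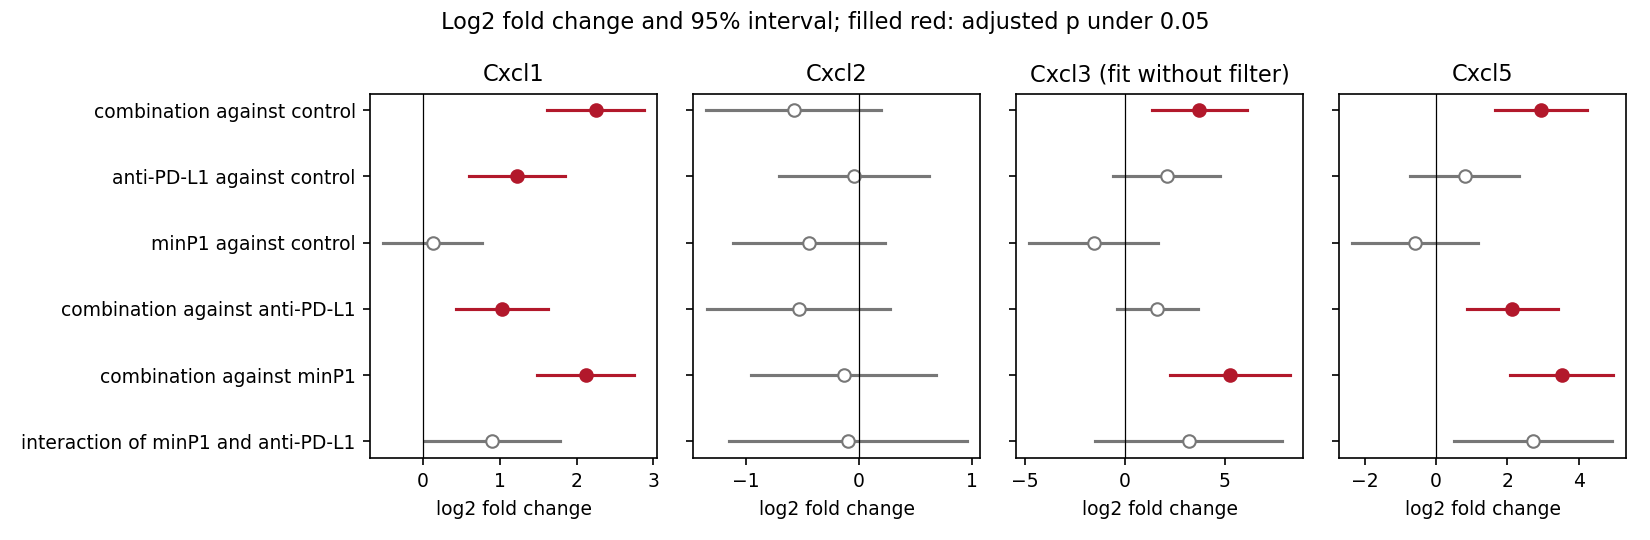
Log2 fold change of each member in the 6 comparisons (points) with its 95% interval (lines), from edgeR, filled red where the adjusted p was under 0.05. Cxcl1 and Cxcl5 in the combination against control stand at 2.25 and 2.94, and Cxcl2 at -0.57.

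The interaction asked whether minP1 changed a gene more on top of the antibody than alone. It was 0.90 ± 0.43 log2 units for Cxcl1 (95% interval 0.02 to 1.78, edgeR, adjusted p = 0.446) and 2.72 ± 1.07 for Cxcl5 (interval 0.51 to 4.92, adjusted p = 0.366). For Cxcl2 it was -0.09 ± 0.51 (adjusted p = 0.965) and for Cxcl3, in the fit without the filter, 3.19 ± 2.39 (adjusted p = 1, where 0.186% of genes passed). None of the 4 passed, in a comparison where 0% of the 5443 genes passed by edgeR, 600 had an unadjusted p under 0.05, and DESeq2 called 20.

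The make-up of the 4 transcripts within a library needs no scaling between libraries. Of the members' counts Cxcl2 held 2.82%, 7.07% and 5.07% in the combination libraries, 13.2%, 16.2% and 11.2% in anti-PD-L1, 28.9%, 13.4% and 21.5% in minP1, and 27.1%, 35.4% and 21.8% in control. Cxcl1 held 78.3% to 83.1% in the combination, 71.7% to 86.7% in anti-PD-L1, 64.4% to 83.6% in minP1 and 60.4% to 71.4% in control. Cxcl1 was thus the leading transcript in all 12 libraries, and the Cxcl2 share was lower in the combination than in any other library. Together the 4 summed to 1130, 553 and 714 scaled CPM in the combination, 384, 338 and 457 in anti-PD-L1, 155, 227 and 195 in minP1, and 184, 158 and 242 in control.

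**Figure D3:**
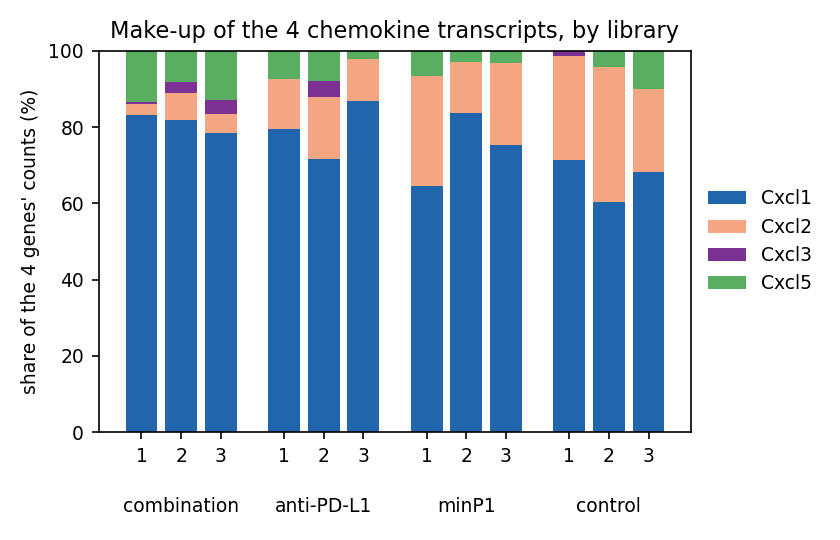
Share of each member in the counts of the 4 genes (stacked bars, percent) for replicates 1 to 3 of each group. The Cxcl2 part spans 2.82% to 7.07% in the combination and 21.8% to 35.4% in control.

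For each Cxcl2 count there were 29.5, 11.6 and 15.4 Cxcl1 counts in the combination libraries, 6, 4.44 and 7.75 in anti-PD-L1, 2.23, 6.22 and 3.50 in minP1, and 2.63, 1.71 and 3.12 in control. The combination lay above all other libraries, and anti-PD-L1 above every control but not above every minP1 library. On the log2 scale the ratio averaged 4.12 ± 0.69 in the combination, 2.56 ± 0.40 in anti-PD-L1, 1.87 ± 0.74 in minP1 and 1.27 ± 0.45 in control (SD, n = 3 each). It differed between the 4 groups (exact permutation test over all 15400 divisions of the 12 libraries into 4 groups of 3, p = 0.00175, a test chosen after the values were seen). Between pairs of groups an exact permutation test of 3 against 3 cannot go below 0.1, and it gave 0.1 for the combination against each other group and for anti-PD-L1 against control, and 0.4 for minP1 against control (two-sided). The pairs share libraries, and those for the combination and anti-PD-L1 share the controls.

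**Figure D4:**
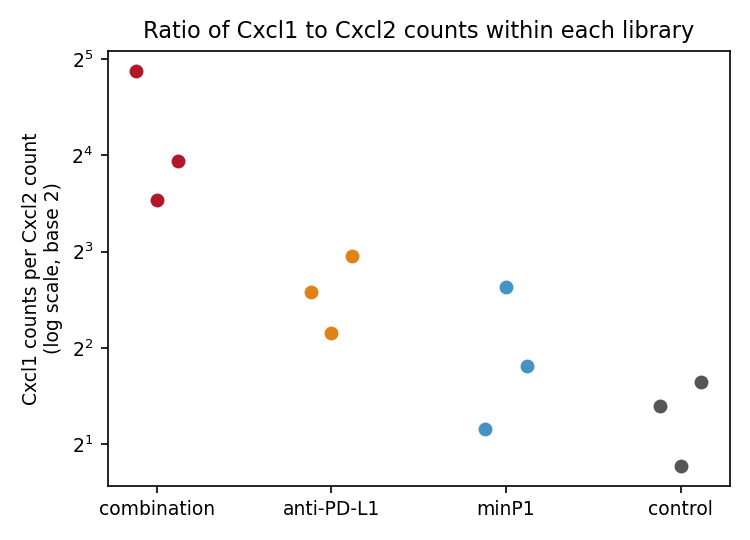
Counts of Cxcl1 per count of Cxcl2 in each library, on a log axis with base 2, by group. The combination libraries stand at 11.6 to 29.5 and the control libraries at 1.71 to 3.12.

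The 5′ ends of the members are related, which bears on how far their tags can be told apart. Over the first 100 bases of the coding transcripts, the highest identity was 80.0% between Cxcl2 and Cxcl3, with a shared run of 40 bases, and 71.4% between Cxcl1 and Cxcl2, with a shared run of 23 bases. Cxcl5 shared at most 8 bases in a row with any other member. How reads that match several genes were counted is not given in the sources used here, so the split between Cxcl2 and Cxcl3 is uncertain.

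The receptor fell in the groups in which Cxcl1 rose. Cxcr2, the shared receptor of these ligands on neutrophils, had 111, 106 and 124 scaled CPM in the combination libraries, 107, 150 and 118 in anti-PD-L1, 158, 159 and 198 in minP1, and 289, 236 and 228 in control. Every treated library lay below every control, as did 24.7% of genes tested in the combination and 6.56% in minP1. That share was not taken for anti-PD-L1. Against control Cxcr2 fell by 1.16 in the combination (SE 0.26, adjusted p = 0.0017, edgeR) and by 1.02 in anti-PD-L1 (SE 0.25, adjusted p = 0.0422), where 18.3% and 0.57% of genes fell. In minP1 the difference was -0.56 ± 0.24 (adjusted p = 0.656). Cxcr1, the other ELR chemokine receptor, had 3 counts in all, and Ackr1, a scavenging receptor, was not analysed here.

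Some other neutrophil markers differed from Cxcr2 in direction. Of a list of 15, 6 passed the filter, and in the combination against control S100a9 (3.11 ± 0.44, adjusted p = 1.98e-05) and Csf3r (1.25 ± 0.38, adjusted p = 0.0139) rose (edgeR). Mmp9 and Hdc passed the filter only through the combination libraries, and in the fit without the filter they were 5.53 ± 0.60 (adjusted p = 1.72e-17) and 3.11 ± 0.51 (adjusted p = 9.93e-08) higher there (edgeR). In that fit Lcn2 was not called (0.53 ± 0.64, adjusted p = 0.74). Retnlg, which did not pass the filter, had 0 counts in the combination and 7 in control, the same direction as Cxcr2. No count over the 6 is given as a result, since the filter let in genes that are high in the combination. The summed level of the 13 list genes in the tables was 575 to 683 scaled CPM in the combination, 243 to 331 in anti-PD-L1, 244 to 302 in minP1 and 292 to 361 in control. Of these, 4 had no count in the combination, and Ly6g, Mpo and Elane had 3, 1 and 1 counts over all 12 libraries. Their part in the chemokine results was not tested.

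Markers of other cells were also unequal between the groups. The 10 macrophage markers summed to 1920 to 4070 scaled CPM in the combination, 907 to 1480 in anti-PD-L1, 720 to 1100 in minP1 and 928 to 1070 in control. Of 6 tested, 4 rose in the combination against control, where 16.5% of all genes tested rose. In anti-PD-L1 against control 0 rose, where only 0.551% of all genes did. C1qb averaged 53.4 ± 36.8 in the combination and 68.2 ± 9.25 in control. T cell markers, 6 genes of which none passed the filter, summed to 50.3 to 103 in the combination, 25.6 to 39.5 in anti-PD-L1, 12 to 30.5 in minP1 and 3.28 to 22.4 in control. Mast cell markers, 4 genes of which none passed, summed to 31.1 to 63.4 in the combination, 17.1 to 56.5 in anti-PD-L1, 0 to 34.4 in minP1 and 3.28 to 8.15 in control. In both lists the combination and anti-PD-L1 libraries all lay above every control library. Single genes weighed on these sums: Cd2 averaged 39.6 scaled CPM in the combination and 2.23 in control, and Mcpt4 33.8 and 2.45. Cd8a did not rise, at 2.64 in the combination and 2.91 in control. Of 4 tested fibroblast markers, Col1a2 (-0.81 ± 0.21, adjusted p = 0.0052) and Pdgfra (-2.05 ± 0.57, adjusted p = 0.00788) fell in the combination against control (edgeR), where 18.3% of genes fell. Col1a1 and Col3a1 were not called, and Col1a1 averaged 310 ± 135 in the combination and 203 ± 83.1 in control. Lum, which did not pass the filter, stood higher in the combination, at 25.9 to 87.2 against 10.2 to 19.7 in control. The list of 8 summed to 678 to 1140 in the combination and 867 to 1240 in control. The 6 endothelial markers summed to 16.8 to 71.3 in the combination and 6.57 to 28.9 in control. The part of these lists in the levels of the chemokines was not tested.

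Of the upstream cytokines, Tnf and Il6 were higher in the combination. Tnf, a direct inducer of these chemokines, had 111, 44.7 and 62.1 scaled CPM in the combination, 28.2, 17.1 and 9.58 in anti-PD-L1, 24.1, 16.9 and 3.01 in minP1, and 7.88, 3.28 and 10.2 in control. All combination libraries lay above the other 9. With no overlap, 21.2% of genes tested lay above control in the combination, 16.8% above minP1 and 12.1% above anti-PD-L1. Tnf rose in the combination against control (3.11 ± 0.62, adjusted p = 0.000567), against minP1 (2.24 ± 0.59, adjusted p = 0.00966) and against anti-PD-L1 (2.02 ± 0.60, adjusted p = 0.039, edgeR). It passed the filter only through the combination, and without the filter its difference from control was 3.04 ± 0.58 (adjusted p = 7.96e-06, edgeR). Il6 did not pass the filter, with 22 counts in the combination, 15 in anti-PD-L1, 6 in minP1 and 13 in control. In the fit without the filter it rose in the combination against control (1.91 ± 0.60, adjusted p = 0.0204, edgeR) and against minP1 (2.63 ± 0.69, adjusted p = 0.00553). Il1b, the other classical inducer, averaged 32 ± 4.16 scaled CPM in the combination, 23.8 ± 4.54 in anti-PD-L1, 23.2 ± 14.6 in minP1 and 25.7 ± 8.88 in control, and its difference in the combination against control was 0.29 ± 0.53 (adjusted p = 0.699, edgeR). Il1a was not analysed here. Of 15 cytokines, receptors and sensors on the list, 5 passed the filter, and apart from Tnf and Il1b these were Tnfrsf1a, Tnfrsf1b and Myd88, which passed through every group and for which no difference was called in the combination against control. Il17a, an inducer of Cxcl1 and Cxcl5, and Il17f had 1 count each over the 12 libraries, and Csf3, the neutrophil growth factor, had 7.

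**Figure D5:**
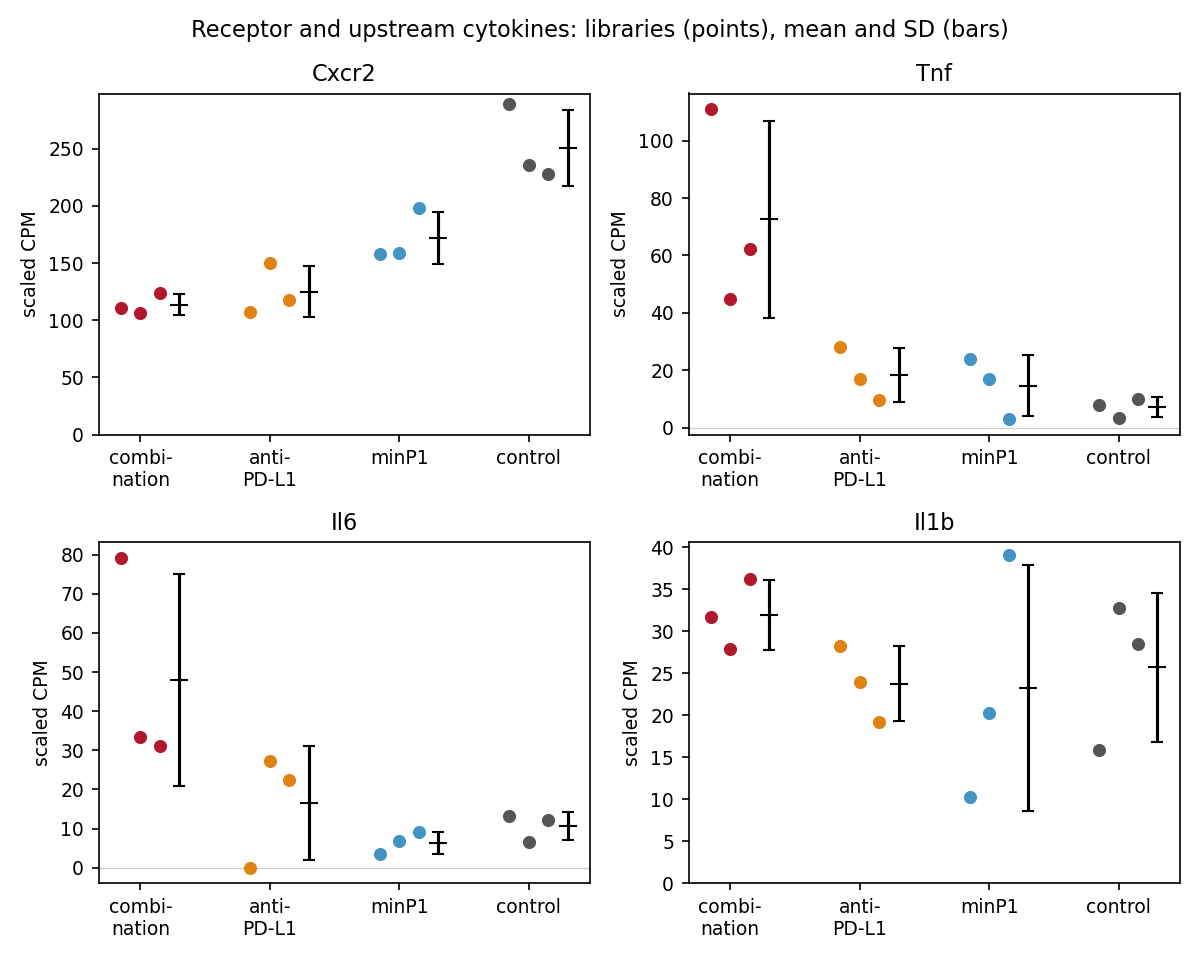
Level of Cxcr2, Tnf, Il6 and Il1b in each library, in TMM-scaled CPM, as points by group, with the mean and SD of 3 mice as bars. Cxcr2 stands at 106 to 124 in the combination and 228 to 289 in control, while Tnf stands at 44.7 to 111 in the combination and 3.28 to 10.2 in control.

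NF-kB subunits and feedback genes did not rise together. Of 8 tested genes from a list of 15, 1 rose and 2 fell in the combination against control, with a median of -0.62 against -0.06 over all genes. Of all genes tested, 16.5% rose and 18.3% fell there, so these counts lie near the share over all genes. Ptgs2, which makes prostaglandins, rose by 1.09 ± 0.25 (adjusted p = 0.00169), while Ier3, an early response gene, and Nfkb2, the subunit of the noncanonical pathway, differed by -1.76 ± 0.40 (adjusted p = 0.00158) and -2.78 ± 0.81 (adjusted p = 0.0105, edgeR). Tnfaip3, the inhibitor A20, averaged 115 ± 89.0 scaled CPM in the combination, 292 ± 8.49 in anti-PD-L1, 197 ± 62.0 in minP1 and 136 ± 48.2 in control. It was lower in the combination than in anti-PD-L1 (-1.28 ± 0.37, adjusted p = 0.0374, edgeR), where 3.95% of genes fell. Nfkbia, the inhibitor IkB-alpha, fell in the combination against minP1 by 0.74 (SE 0.25, adjusted p = 0.038, edgeR), where 10.8% of genes fell. No listed gene passed in either lone treatment against control.

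Genes that set the half-life of chemokine messages were also examined. All 7 passed the filter, and in the combination against control Zfp36l2 rose (1.21 ± 0.26, adjusted p = 0.00101), while Zfp36l1 (-0.94 ± 0.31, adjusted p = 0.0204) and Elavl1 (-1.37 ± 0.53, adjusted p = 0.0455) fell (edgeR). Without the filter the adjusted p of Elavl1 was 0.0634. The first 2 belong to the family of Zfp36, which binds AU-rich elements and speeds decay, and Elavl1 encodes HuR, which binds such elements and slows it. Zfp36 itself averaged 196 ± 24.9 scaled CPM in the combination and 286 ± 71.2 in control and did not pass. The list median was -0.44 against -0.06 over all genes. In the combination against control 16.5% of all genes tested rose and 18.3% fell, so 1 rise and 2 falls among 7 are not read as a result about the list.

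Of 11 other CXC chemokine genes on the list, 7 were in the tables. Only Cxcl10, Cxcl14 and Cxcl16 passed the filter, and none of these 3 was called in any of the 6 comparisons. Cxcl10, which draws T cells through CXCR3, averaged 140 ± 28.8 scaled CPM in the combination and 77.3 ± 14.8 in control (0.83 ± 0.36, adjusted p = 0.0714, edgeR). Its combination libraries lay above control with no overlap, as did those of 21.2% of genes tested. Pf4, the platelet chemokine between Cxcl5 and Cxcl3 in the cluster, had 7 counts in the combination, 14 in anti-PD-L1, 2 in minP1 and 12 in control. As scaled CPM it averaged 12.2 ± 16.6, 18.7 ± 7.92, 2.26 ± 3.91 and 10.4 ± 2.54 in that order. Cxcl15 and Ppbp, the remaining chemokine genes of the cluster, were not analysed here.

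Genes whose level ran closest to a member over the 12 libraries were taken by Pearson's r of log2 CPM, as a description. For Cxcl1 they were Tcp11l2 (r = 0.962), Fgl2 (0.954), Marcksl1 (0.949), Clec7a (0.946) and Arg2 (0.945). Clec7a, the beta-glucan receptor dectin-1 of myeloid cells, averaged 379 scaled CPM in the combination, 104 in anti-PD-L1, 74.2 in minP1 and 48.8 in control, the same order of groups as Cxcl1. For Cxcl5 they were Zc3h11a (0.952), Ptx3 (0.936), Ralgds (0.933), Cybb (0.931) and Ddx50 (0.923). Ptx3, a soluble pattern receptor, averaged 294 scaled CPM in the combination, 59.8 in anti-PD-L1, 21.4 in minP1 and 10.7 in control. For Cxcl2 they included Hspa1b (0.881), Lpcat1 (0.864), Selenoh (0.845) and Park7 (0.832). Hspa1b, an inducible heat shock protein, averaged 49.1 scaled CPM in the combination, 226 in anti-PD-L1, 138 in minP1 and 254 in control. The 12 points share group, depth and Bc1 level, and no p is given.

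Early response and heat shock genes, which the digestion of a tumour for 60 min at body temperature can induce, were mostly lower in the combination. Of 9 tested genes of the digestion stress list, 1 rose and 6 fell against control (edgeR), where 16.5% of all genes tested rose and 18.3% fell. Junb, Fosb and Dusp1 averaged 1200, 170 and 451 scaled CPM in the combination, above their 746, 128 and 424 in control. The list of 10 summed to 2300 to 2960 scaled CPM in the combination, 3460 to 4010 in anti-PD-L1, 3040 to 4070 in minP1 and 2830 to 4070 in control. Hspa1b fell by 2.33 (SE 0.48, adjusted p = 0.000776), Fos by 1.33 (SE 0.28, adjusted p = 0.000919), Egr1 by 1.14 (SE 0.25, adjusted p = 0.00123) and Jun by 1.21 (SE 0.30, adjusted p = 0.00305). The part of this list in the levels of the members was not tested.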

How the data were processed

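Tumours of 12 mice were digested, tumour cells and dead cells were reduced by Percoll, and amplified polyadenylated RNA was read by 5′-end tags on an Ion S5, per the labels' protocols. The authors deposited 1 table per sample of whole-number counts per gene symbol, not normalized. Bowtie2 2.2.5, R 3.6.1, DESeq2 and mm10 are named, without roles, per the submitters' processing notes. For counting, annotation, strand and multi-mapping, rules are not given in the sources used, and no molecular identifiers are named. Floors and exact counting intervals cover counting error only, while the edgeR intervals also hold the spread between libraries.

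Genes passing filterByExpr (5443 of 19921) were tested on all 12 libraries with edgeR 4.0.16 (R 4.3.3): TMM factors, 1 mean per group, quasi-likelihood test, Benjamini-Hochberg adjustment over all genes tested in each of 6 comparisons, threshold 0.05. The biological coefficient of variation was 22.5%. The prior count for log2 fold changes was 0.125, and standard errors were derived from the F statistic. Cxcl3 was tested without the filter, where the median log2 fold change over all genes in the combination against control was -0.29. Alternatives used DESeq2 1.42.0 and limma 3.58.1.

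Genes named besides the members were the receptors and inducers, up to 4 passing genes per list by smallest p, and the 5 genes most like each tested member, of which 1 is not reported here. Genes named without a call outside these were picked after their values were seen. Alternatives were other tools and scalings, no filter, a replicate block, a Bc1 covariate, thinning to the smallest total, fits of 6 samples and left-out libraries. Members and lists were chosen with earlier results of these data known. Each library is 1 mouse, per the labels. No batch is labelled.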

Additional observations from a re-analysis of the deposited data

How the results depend on the processing

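Cxcl1 and Cxcl5 in the combination against control and against minP1 kept their direction and passed the test under every alternative that gave a value. Leaving out 1 library at a time gave 1.97 to 2.52 and 1.84 to 2.39 for Cxcl1, and 2.42 to 4.74 and 3.16 to 3.93 for Cxcl5 (log2). Cxcl1 in anti-PD-L1 against control ranged from 1.05 to 1.44, and was 1.13 with unscaled totals (adjusted p = 0.0507), 1.06 with the Bc1 covariate, 1.25 with both anti-PD-L1 replicate 1 and minP1 replicate 2 left out (adjusted p = 0.0554) and 0.72 at equal depth. Cxcl1 in the combination against anti-PD-L1 ranged from 0.72 to 1.26, and the call was lost without combination replicate 1 and without anti-PD-L1 replicates 2 or 3. Cxcl5 in that comparison ranged from 1.73 to 2.53 and was 2.10 with limma voom. Cxcl3 in the combination ranged from 3.18 to 5.26 against control and 4.86 to 5.64 against minP1. With the replicate block it was 3.64 and 5.28, at equal depth 2.55 and 4.35, and against control with the Bc1 covariate 4.91 (adjusted p = 0.0779).

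Differences that had not passed changed sign as follows. Cxcl1 in minP1 against control ranged from -0.10 to 0.34 and was -0.11 without both named libraries and -0.40 at equal depth. Cxcl2 in anti-PD-L1 against control ranged from -0.0738 to 0.0207 and was 0.12 with the Bc1 covariate, and in the combination against minP1 it was 0.0312 with that covariate. Cxcl3 in anti-PD-L1 against control ranged from -1.55 to 3.6. Cxcl5 in minP1 against control ranged from -1.12 to 1.23 and was 0.48 with limma voom. The log2 ratio of Cxcl1 to Cxcl2 in minP1 against control was -0.0938 at equal depth, an alternative added after the data were seen. The cause of these changes was not tested.

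The labels state no pairing by replicate number, and the values do not settle it. Same-numbered libraries of different groups deviated together with r of -0.14 to 0.21 (median 0.097), over 0.1 in 9 of 18 pairs. Libraries with other numbers gave r of -0.32 to 0.32 (median -0.043). With the replicate block Cxcl1 in anti-PD-L1 against control was 1.23 (adjusted p = 0.0155), and among the members' calls those of Cxcl3 were lost. The block moved the count of calls in anti-PD-L1 against control to 173, against 61 without it. That count was 88 with DESeq2 and 167 without the filter. In minP1 against control 51 genes passed without the filter and in the interaction 37, with 20 by DESeq2 and 16 with the block, against 0 in both.

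DESeq2 gave no adjusted p for Cxcl3, except in minP1 against control, and for several comparisons of Cxcl2 and Cxcl5, whose counts are low. At equal depth Cxcl2 and Cxcl5 did not pass the filter, nor did Cxcl5 in fits of 6 samples, so these gave no value. Depth limits Cxcl3 most, since 3 counts in a library equal 6.11 to 23.8 scaled CPM.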
